A study of Mus musculus with 6 samples.

Results

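The genes described here are the 46 of 19162 in the deposited table whose symbol starts with Psma to Psmg and a number and whose counts averaged 20 or more over the 6 libraries. The pattern matched 51 symbols. Psmb8, Psmb9 and Psmb10, the 3 immunoproteasome catalytic genes, were left out, and the pseudogenes Psmb7-ps2 (mean count 3.33) and Psmb5-ps (0.333) fell under the limit. The members nearest to it were Psma8, a testis-specific alpha subunit, at a mean count of 38.3, and Psmc3ip at 154.5. Psmc3ip matches the pattern by name only, since it encodes a cofactor of meiotic recombination, so 45 of the 46 are proteasome genes. All 46 passed the filter on low counts.

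The proteasome is the large protease of the cytosol and nucleus that degrades ubiquitin-tagged proteins. Its barrel, the 20S core, is built from 4 stacked rings of alpha and beta subunits, and 3 of the beta subunits cut peptide bonds. The 19S cap is made of a base with a ring of ATPases and a lid, and it binds ubiquitin chains, removes them, unfolds the protein and threads it into the core. Dedicated chaperones assemble both particles, other activators can replace the cap, and the subunits are known to be controlled together by the transcription factor NFE2L1. Myeloid cells also make an immunoproteasome, in which other catalytic subunits take the place of the standard ones.

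RNA was sequenced from bone marrow cells of C57BL/6J mice held for 4 days in 40 ng/mL GM-CSF, a growth factor of myeloid cells. The series names the cultures myeloid-derived suppressor cells. Control 1, 2 and 4 received no further addition, and KCl 1, 2 and 4 received 34.7 mM of extra potassium chloride (KCl). The question was which transcripts differ under high potassium. A control for the higher osmolality was not analysed here, and the labels leave unsaid if replicates are separate mice. P-values therefore reflect only how these samples vary, which may be technical. Values are listed in the order of libraries 1, 2 and 4, first without and then with added KCl.

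Library totals ran from 14118724 to 21694831 counts. Myeloid genes were abundant, with 80038 to 198399 counts of the lysozyme gene Lyz2, whereas the 6 T and NK cell markers in the table summed to 2.26 to 3.57 CPM (counts scaled to a common library size). Among all tested genes 10.5% fell and 12.4% rose with KCl. Of 9 dendritic cell markers 6 fell and 0 rose, and their summed CPM was 5566 to 7486 in control and 4136 to 5168 in KCl. Of 7 monocyte markers 3 rose and 0 fell (1340 to 1510 against 1614 to 2023 CPM), of 9 neutrophil markers 3 rose and 0 fell, and of 8 eosinophil, basophil and mast cell markers 4 fell and 1 rose (2412 to 2623 against 1236 to 1378 CPM). Of 8 proliferation genes 1 fell and 0 rose, at 2066 to 2406 CPM in control and 2058 to 2331 in KCl. Without control 4 and KCl 4, 0 dendritic cell, monocyte, neutrophil or proliferation markers passed by edgeR, and of the eosinophil, basophil and mast cell markers 2 fell and 1 rose. The mitochondrial share of counts was 3.89% to 4.80% without KCl and 3.26% to 3.61% with it. The part of these shifts in the results below was not tested, and in bulk RNA fewer cells of a type and less RNA per cell cannot be told apart.

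The values of control 4 and KCl 4 were tied to those of the remaining libraries. In 43 members averaging 300 counts or more, this pair's mean CPM was compared with the mean CPM of the other 4. Over members the log2 ratio of these means had an SD of only 0.0045. Counting noise by itself would give 0.036, and any of the 14 further pairs gave between 0.071 and 0.148. Over the 8231 genes of that depth the SD was 0.011, against 0.044 for counting noise. A p-value from all 6 may thus be too low or too high, depending on where the pair lies in a gene. An SD or SE from all 6 carries the same limit. At an unadjusted edgeR p under 0.05, 17 members were lower with all 6 libraries and 28 without the pair. The counts of members are given with and without these 2 libraries.

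Upstream stretches of 4 members are shown because they hold the core of the antioxidant response element, the kind of site that NFE2L1 binds with a small MAF partner. Psmc6 and Psmd12 fell in KCl, while the catalytic genes Psmb5 and Psmb6 did not pass. Each is 100 bases from RefSeq (GRCm38.p6), ends before the annotated start and is written along the gene's own strand, with the match in capitals. Psmc6 lies at chr14:45329574-45329673 (plus), Psmd12 at chr11:107479278-107479377 (plus), Psmb5 at chr14:54618023-54618122 (minus) and Psmb6 at chr11:70525257-70525356 (plus).
Psmc6: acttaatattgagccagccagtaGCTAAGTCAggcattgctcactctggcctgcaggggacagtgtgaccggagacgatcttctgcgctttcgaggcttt
Psmd12: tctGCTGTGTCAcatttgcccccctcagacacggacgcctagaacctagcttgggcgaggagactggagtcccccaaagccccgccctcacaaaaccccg
Psmb5: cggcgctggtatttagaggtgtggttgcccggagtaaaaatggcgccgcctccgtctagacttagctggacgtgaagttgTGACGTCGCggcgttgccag
Psmb6: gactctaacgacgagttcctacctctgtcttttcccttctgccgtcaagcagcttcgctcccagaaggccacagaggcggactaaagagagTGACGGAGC
The match began 227 bases before the RefSeq start in Psmc6, 247 in Psmd12, 47 in Psmb5 and 9 in Psmb6.

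The motif searched was TGACNNNGC on both strands, in windows of 250 bases before to 50 after each start. RefSeq windows were found for 38 of the 46 members, 41 windows in all. The motif was in 6 of the 41 (14.6%) and in 14.2% of the 15956 windows of all genes in the deposited table, so the members held it about as often as other genes. A CCAAT box (CCAAT) was in 31.7% of member windows against 36.9%, and a GC box (GGCGGG) in 65.9% against 55.2%. The motifs were searched separately and may share bases. A match describes letters only.

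With all 6 libraries, 13 of 46 members fell in KCl and 0 rose in edgeR's quasi-likelihood fit, with p-values adjusted by Benjamini-Hochberg across 13326 genes. Of all tested genes 10.5% fell and 12.4% rose, 22.9% together. The members that fell were Psma2, Psma4, Psma6, Psma7, Psmb1, Psmc6, Psmd6, Psmd7, Psmd8, Psmd11, Psmd12, Psmd14 and Psmf1, by 12.4% to 22.7%. The median log2 fold change, KCl minus control, was -0.12 over the members and 0.00 over all tested genes. Of the 46, 43 lay below 0 (93.5%, against 50.6% of tested genes), so nearly all members leaned the same way by a small amount. The 3 above 0, Psmd5, Psmd10 and Psme4, did not pass. At an unadjusted p under 0.05, 17 members were lower and these 3 were higher, against 16.4% and 17.9% of tested genes. DESeq2 called 13 members lower (9.56% of tested genes) and limma-voom 14 (10.5%), and both called 0 higher.

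Without control 4 and KCl 4, 0 of 46 members passed by edgeR in either direction, where 0.126% of tested genes fell and 0.333% rose, 0.458% together. Again 43 members lay below 0, against 50.3% of tested genes. At an unadjusted p under 0.05, 28 members were lower and 1 was higher, against 13.6% and 16.2% of tested genes. The median of the members was -0.23 in these 4 libraries and that of tested genes was 0.00. Both KCl libraries lay below both controls for 40 of 46 members (87.0%), compared with 32.4% of tested genes, and above both for 3, compared with 31.6%. With all 6 libraries this held for 20 of 46 (43.5%) and 18.4%. Leaving out the pair took the members' median from -0.12 to -0.23 and ended every call.

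**Figure D1:**
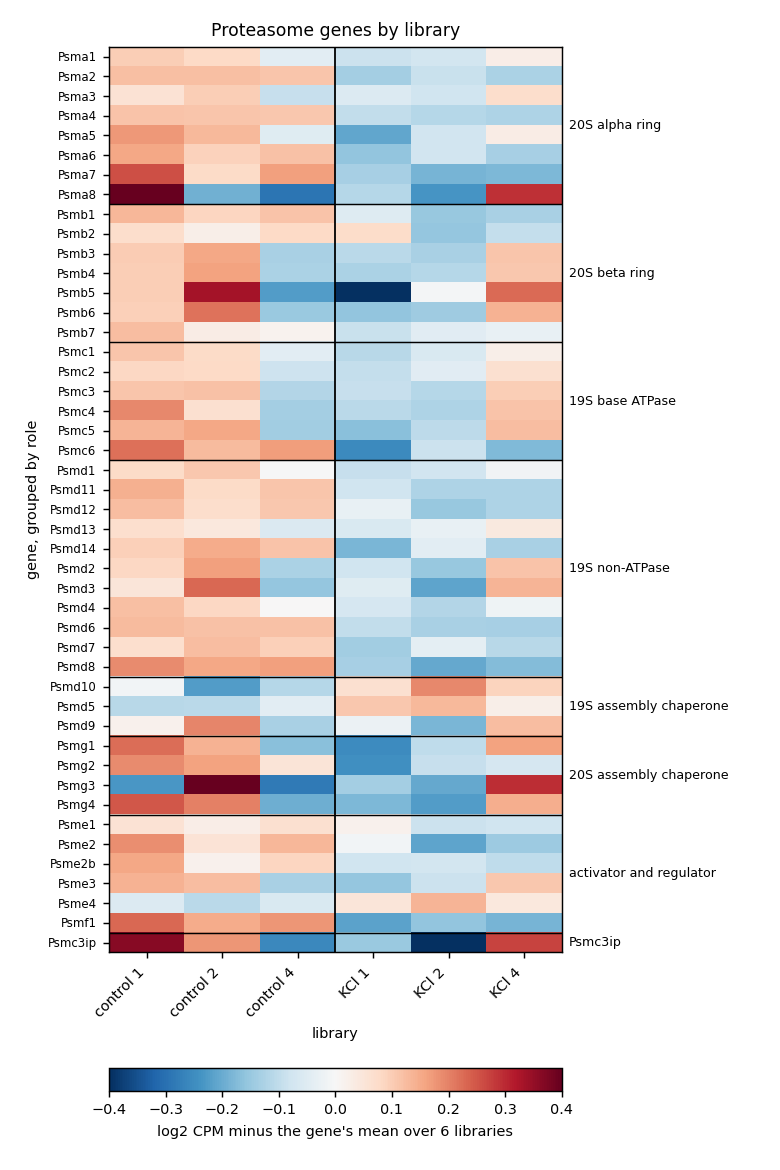
Each cell gives a member's log2 CPM in 1 library (columns) minus that gene's mean over the 6 libraries, with genes in rows grouped by role and colours limited to 0.4 either way. Control 1 and 2 are mostly red (median 0.12 and 0.11 over members), KCl 1 and 2 mostly blue (-0.10 and -0.11), and control 4 (-0.04) and KCl 4 (0.03) change colour from gene to gene.

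Relative to each gene's mean over the 6 libraries, the members' median log2 level was 0.12, 0.11 and -0.04 in control 1, 2 and 4, and -0.10, -0.11 and 0.03 in KCl 1, 2 and 4. Their summed CPM was 5359, 5348 and 4945 without KCl and 4623, 4643 and 4953 with it. Control 1 and 2 were high, KCl 1 and 2 were low, and the sums of control 4 and KCl 4 lay between them and close together. Individual members did not all follow this middle course. A position was computed for each gene, in which 0 is the mean CPM of KCl 1 and 2 and 1 that of control 1 and 2. Control 4 had a position under 0.1 for 19 members (-0.25 to 0.02), between 0.1 and 0.9 for 9, and over 0.9 for 18 (0.96 to 1.39).

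In the 19 members where control 4 stood at the KCl level, KCl 4 stood near the control level, at positions from 0.79 to 1.24. In the 13 members that fell, control 4 was at 0.96 to 1.06 and KCl 4 at -0.17 to 0.00. The mean of control 4 and KCl 4 was tied to that of the remaining libraries. The position of KCl 4 therefore largely follows from that of control 4 and is no separate observation. The difference of KCl 1 and 2 from control 1 and 2 was of like size in both sets. Without replicate 4 its median was -0.25 (range -0.54 to -0.10) in the 19 and -0.23 (-0.38 to -0.19) in the 13. With all 6 libraries the medians were -0.09 and -0.24. The calls were made with control 4 and KCl 4 included, so these ranges are a description and no test.

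**Figure D2:**
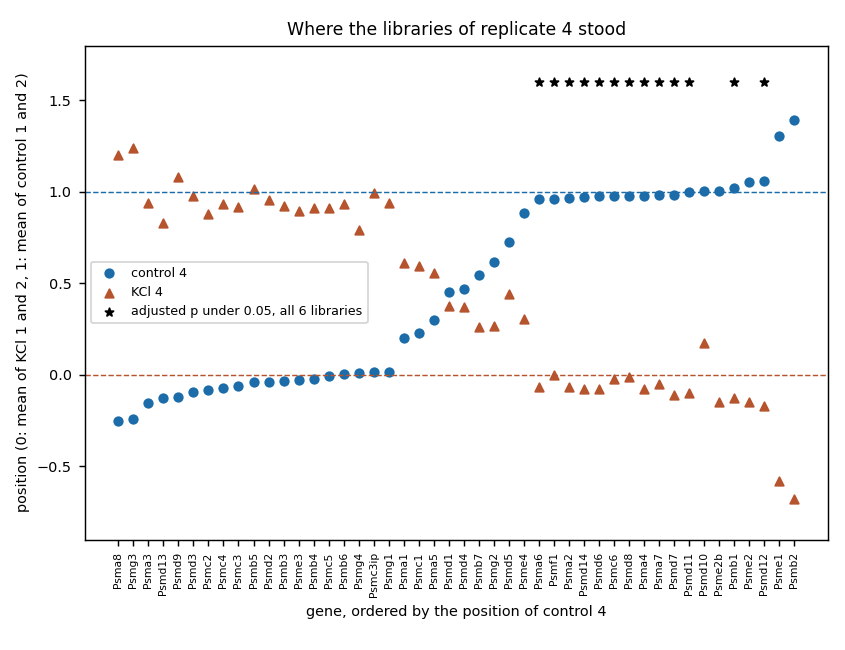
Circles give the position of control 4 and triangles that of KCl 4 for each member, where 0 is the mean CPM of KCl 1 and 2 and 1 that of control 1 and 2. Genes run from the lowest to the highest position of control 4, and stars mark the 13 members that fell with all 6 libraries, which all sit on the right with control 4 at 0.96 to 1.06.

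In the alpha ring, which forms the gate of the core, 4 of 8 genes fell and 4 did not pass, where 10.5% of tested genes fell. The class median was -0.20 (-0.24 without replicate 4). Psma7 stood at 156, 138 and 146 CPM without KCl and 119, 115 and 115 with it. The groups did not overlap, and the log2 fold change was -0.33 ± 0.06 (SE, n = 3 per group; edgeR adjusted p = 0.0114). Psma2 read 165, 165 and 164 CPM against 138, 143 and 139. Here the controls were nearly equal, and the change was -0.23 ± 0.04 (adjusted p = 0.011 by edgeR). Psma4 (124, 124 and 124 against 107, 106 and 105 CPM) and Psma6 (199, 191 and 194 against 161, 170 and 163 CPM) also had no overlap, with changes of -0.22 ± 0.04 and -0.24 ± 0.05.

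The alpha genes that did not pass had replicate 4 crossed, that is, KCl 4 above control 4. Psma1 stood at 208, 206 and 189 CPM without KCl and 184, 185 and 198 with it. Psma5 showed the same with 50.9, 49.5 and 43.7 against 39.1, 42.8 and 46.1 CPM. Their changes were -0.09 ± 0.06 and -0.17 ± 0.09 with all 6 libraries and -0.17 and -0.29 without replicate 4. Psma3 had -0.05 with all 6 and -0.15 without. Psma8 was scarce, at 1.62 to 2.90 CPM in every library, its groups overlapped also without replicate 4, and its sign turned without control 1 (0.23) and without KCl 2 (0.016).

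In the beta ring 1 of 7 genes fell, where 10.5% of tested genes fell, with a class median of -0.11 (-0.25 without replicate 4). Psmb1, a beta subunit with no active site, was at 184, 178 and 181 CPM without KCl and 162, 151 and 153 with it. Its groups were apart, with a change of -0.22 ± 0.05 (edgeR adjusted p = 0.0196). None of the 3 catalytic genes passed. Psmb5, which carries the chymotrypsin-like site, stood at 115, 135 and 92.0 CPM without KCl and 79.9, 107 and 126 with it. Control 4 was the lowest control and KCl 4 the highest KCl library, and the change was -0.13 ± 0.20 with all 6 and -0.43 ± 0.17 without replicate 4 (edgeR adjusted p = 0.696 and 0.175). Its sign turned when 1 library was left out, to 0.0047 without control 2 and 0.027 without KCl 1.

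Psmb6, the caspase-like subunit, read 106, 116 and 89.7 CPM without KCl and 89.1, 90.2 and 109 with it, again with replicate 4 crossed. It had a change of -0.11 ± 0.12, or -0.31 ± 0.08 without replicate 4. Psmb7, the trypsin-like subunit, read 122, 114 and 113 CPM against 105, 108 and 109. These groups did not overlap, but the change of -0.11 ± 0.05 missed the threshold (edgeR adjusted p = 0.189). Psmb3 and Psmb4, structural beta subunits, went from -0.09 each to -0.25 each when replicate 4 was left out. Psmb2 had the smallest difference of the ring without replicate 4, at -0.09, and its KCl 1 value (94.1 CPM) was as high as the controls (94.0, 91.0 and 94.5 CPM).

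Of the 6 ATPases of the 19S base, which unfold the substrate, 1 fell, where 10.5% of tested genes fell. The class median was -0.09 (-0.23 without replicate 4). Psmc6 stood at 117, 109 and 112 CPM without KCl and 84.0, 94.3 and 88.6 with it. The highest KCl library was well below the lowest control, and the change was -0.34 ± 0.06 (edgeR adjusted p = 0.0116). Psmc6 (ENSMUSG00000021832) occupies bases 45329788 to 45349705 of chromosome 14 (mm10, plus strand). The other 5 ATPase genes did not pass and ranged from -0.10 to -0.05. Psmc5 had 110, 111 and 90.8 CPM against 88.9, 92.9 and 109, and Psmc1 had 177, 172 and 159 against 151, 157 and 166. In both genes KCl 4 was above control 4, and their changes without replicate 4 were -0.28 and -0.18.

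Among 11 non-ATPase subunits of the 19S particle 6 fell, and the class median was -0.19 (-0.21 without replicate 4). All 6 encode subunits of the lid, of which 8 match the symbol pattern, where 10.5% of tested genes fell. In the lid genes Psmd3 and Psmd13, which did not pass, KCl 4 was above control 4. Without replicate 4, 0 of the 11 passed by edgeR. The medians of the alpha ring, beta ring and ATPases were then -0.24, -0.25 and -0.23, so the lid did not stand out. Shfm1 (Sem1), a lid gene outside the pattern, did not pass, with a change of -0.02 (-0.07 without replicate 4). Psmd8 gave the smallest p of the members. It stood at 232, 226 and 228 CPM without KCl and 185, 177 and 180 with it, and the groups did not overlap. The means were 229 ± 2.78 and 181 ± 4.40 CPM (SD, n = 3), a change of -0.34 ± 0.04 (edgeR adjusted p = 0.00513). These spreads include the tied libraries control 4 and KCl 4. Without them the change was -0.34 ± 0.07 (edgeR adjusted p = 0.0821). Psmd8 (ENSMUSG00000030591) occupies bases 29174188 to 29180701 of chromosome 7 (mm10, minus strand).

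Psmd14, the deubiquitinase that removes ubiquitin chains from the substrate, read 132, 137 and 134 CPM without KCl and 109, 120 and 113 with it. It fell by 0.24 ± 0.05 on the log2 scale (edgeR adjusted p = 0.0235). Its partner in the lid, Psmd7, read 136, 141 and 138 CPM against 118, 126 and 120. Psmd7 fell by 0.19 ± 0.05 on the log2 scale, and neither gene had overlapping groups. The lid genes Psmd6 (-0.24 ± 0.04), Psmd11 (-0.22 ± 0.05) and Psmd12 (-0.20 ± 0.05) fell by about the same amount. Psmd6 was at 110 CPM in each control library and at 94.3, 92.5 and 92.1 in KCl. Psmd11 was at 89.2, 85.4 and 87.3 CPM against 76.5, 74.3 and 74.3, and Psmd12 at 101, 97.6 and 100 against 91.0, 83.6 and 85.2.

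Psmd4, a ubiquitin receptor of the cap, did not pass, with 117, 114 and 108 CPM without KCl and 103, 99.5 and 107 with it. Control 4 was barely above KCl 4, and the change was -0.14 ± 0.05 (edgeR adjusted p = 0.135). Psmd1, a large scaffold subunit of the base, had 213, 218 and 202 CPM against 189, 192 and 200, and -0.12 ± 0.05. Psmd2, the other large base subunit and the member with the highest CPM, read 335, 354 and 290 against 299, 284 and 342. Its change was -0.08 with all 6 and -0.24 without replicate 4, in which it crossed. The lid genes Psmd3 and Psmd13 likewise went from -0.08 to -0.27 and from -0.04 to -0.10, and Psmd3 was at 0.013 without control 2.

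**Figure D3:**
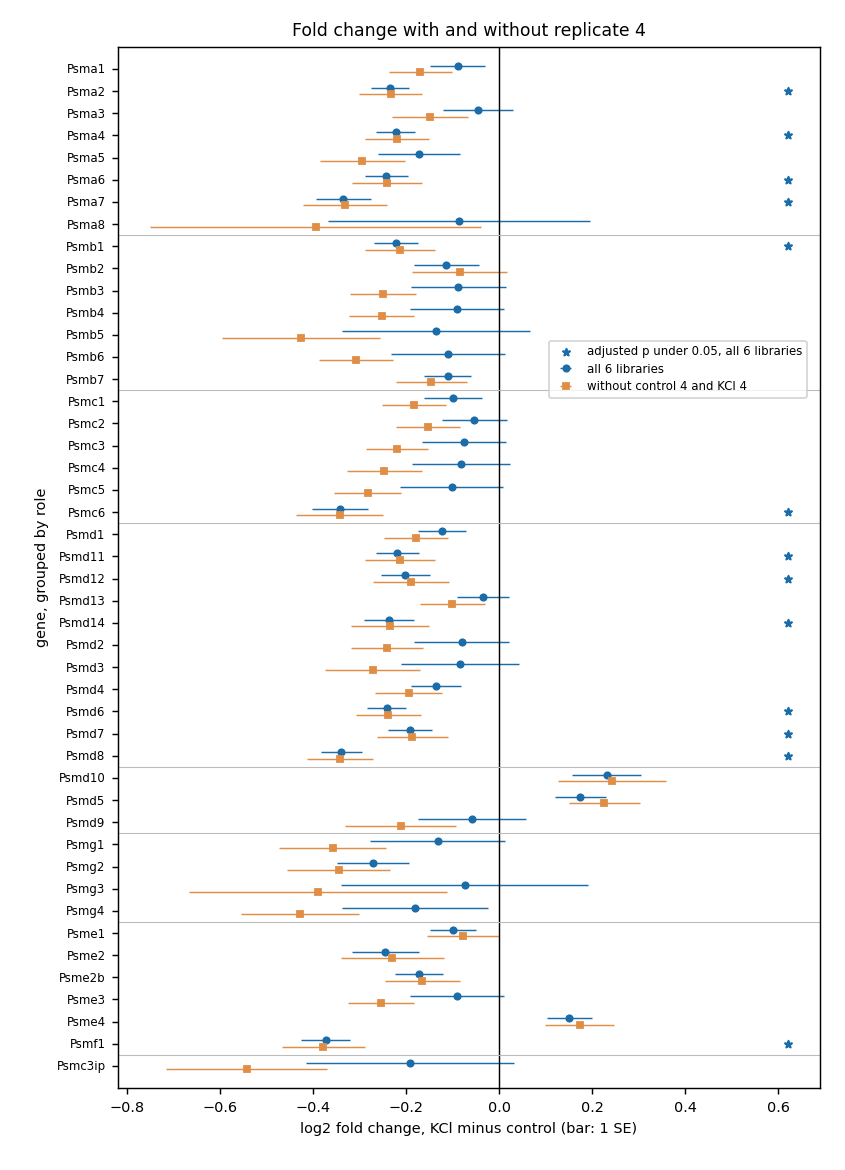
Points give the log2 fold change (KCl minus control) of each member with a bar of 1 SE, circles with all 6 libraries and squares without control 4 and KCl 4, and stars mark the 13 members with an adjusted p under 0.05. In genes with a star circle and square coincide, while most others move to the left without the pair, and Psmd5, Psmd10 and Psme4 stay to the right of 0.

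Of the 3 chaperones that build the 19S base, Psmd10 and Psmd5 lay above 0. Psmd10 (gankyrin) stood at 38.4, 33.1 and 35.7 CPM without KCl and 40.4, 44.2 and 41.2 with it. Psmd5 read 54.8, 54.9 and 57.4 CPM against 63.8, 64.7 and 60.1. For both genes all KCl libraries lay above all controls, as they did for 20.2% of tested genes. Their changes of 0.23 ± 0.07 and 0.17 ± 0.05 missed the threshold (edgeR adjusted p = 0.0754 and 0.0659), and were 0.24 and 0.23 without replicate 4 (0.228 and 0.138). The third base chaperone, Psmd9, had overlapping groups and a change of -0.06 ± 0.12, or -0.21 without replicate 4, 0.030 without control 2 and 0.015 without KCl 2.

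The Psmg genes encode chaperones that assemble the alpha ring. All 4 lay below 0 and none passed, with a class median of -0.16 (-0.37 without replicate 4). Psmg2 came closest, at 22.3, 21.8 and 20.3 CPM without KCl and 16.5, 18.3 and 18.6 with it. Its groups did not overlap, and the change was -0.27 ± 0.08 (edgeR adjusted p = 0.0517). It passed with RLE, upper-quartile or library-size scaling, with a mean CPM of at least 5 and with limma-voom (adjusted p 0.0289 to 0.0476). Psmg4 read 12.3, 11.9 and 9.04 CPM against 9.14, 8.86 and 11.5, with replicate 4 crossed. Psmg3 varied widely within control, at 14.5, 25.2 and 14.1 CPM, and its groups overlapped with and without replicate 4. Its sign turned without control 2 (0.26) and without KCl 2 (0.017).

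Of 6 genes for other activators and an inhibitor of the core, 1 fell, where 10.5% of tested genes fell. Psmf1 encodes PI31, which binds the core and blocks it in vitro. It stood at 44.4, 41.9 and 42.8 CPM without KCl and 32.6, 33.9 and 33.3 with it. The fall was the largest of the 13, at -0.37 ± 0.05 (edgeR adjusted p = 0.0063), and the groups did not overlap. Without replicate 4 the change was -0.38 ± 0.09 (edgeR adjusted p = 0.0918). Psmf1 (ENSMUSG00000032869) occupies bases 151715812 to 151744186 of chromosome 2 (mm10, minus strand).

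Psme1 and Psme2 encode the 2 chains of PA28, an interferon-inducible cap tied to antigen processing. Psme1 read 110, 108 and 110 CPM without KCl and 107, 99.5 and 99.9 with it, a small difference of -0.10 ± 0.05 that did not pass. Psme2 read 50.0, 45.6 and 48.2 CPM against 43.6, 38.0 and 39.7, with no overlap and -0.24 ± 0.07 (edgeR adjusted p = 0.0572). It passed with upper-quartile scaling (0.0385) and without KCl 1 (0.0453). Psme2b, a near copy of Psme2, stood at 140, 128 and 134 CPM against 119, 120 and 118 (-0.17 ± 0.05, adjusted p = 0.0579 by edgeR). Psme2b passed with upper-quartile scaling (0.0248), library-size scaling (0.0452) and without control 2 (0.0484). The counting could have split reads between Psme2 and Psme2b, so both values are uncertain.

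Psme3, the nuclear PA28 relative, read 244, 241 and 202 CPM without KCl and 199, 208 and 238 with it. Replicate 4 was crossed, and the change was -0.09 ± 0.10, or -0.25 without it. Psme4 (PA200), a single-chain activator of the nucleus, stood at 138, 133 and 137 CPM against 148, 157 and 147. Every KCl library was above every control, but the change of 0.15 ± 0.05 did not pass (edgeR adjusted p = 0.0724, and 0.197 without replicate 4). Psmc3ip, the recombination cofactor that matches by name, had 10.3, 9.07 and 6.71 CPM against 7.25, 6.06 and 9.68, and -0.19 ± 0.22.

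Calls of the 13 members rested on replicate 4 and on single libraries to different degrees. Without control 4 alone 4 members fell, namely Psma7, Psmc6, Psmd8 and Psmf1, where 4.32% of tested genes fell. Without KCl 4 alone 2 of 46 did, Psmd8 and Psmf1, a share close to the 4.04% of tested genes. Without both, the adjusted p of the 13 ran from 0.0821 (Psmd8) and 0.0918 (Psmf1) to 0.197 (Psmd12). Psma2, Psma4, Psma6 and Psmd6 missed the threshold in 2 of the 6 fits that left out 1 library, those without control 4 or KCl 4 (edgeR adjusted p from 0.0544 to 0.0676). Psma7 and Psmc6 missed it in 1 of these 6, without KCl 4 (0.05 each). Psmd11 also missed it without control 1 (0.0501), and Psmb1 without control 1 or KCl 2 (0.0523 and 0.0515). Psmd14 also missed it without control 2 or KCl 1 (0.0638 and 0.0623). Psmd12 was lost without any 1 library but KCl 1 (0.0635 to 0.139), and Psmd7 without any 1 library but KCl 2 (0.0512 to 0.13). With each library left out, the fold changes of the 13 lay between -0.39 and -0.17. For single genes the range differed, from -0.39 to -0.30 in Psmc6 and from -0.25 to -0.22 in Psma2. Leaving out control 4 or KCl 4 could move them little, since both lay close to the means of their groups in these genes.

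Levels were compared between members on the deposited FPKM scale, which divides by gene length. Without Psma8 and Psmc3ip, mean FPKM ran from 3.22 for the chaperone gene Psmd9 to 162 for Psmb1. Class medians were 31.7 for the alpha ring, 54.9 for the beta ring, 46.4 for the ATPases and 29.8 for the non-ATPase subunits, and 6.41 and 12.3 for the base and alpha-ring chaperones. In control Psma2 was at 175 ± 1.14 and Psmb1 at 176 ± 3.08 FPKM (SD, n = 3), which differ by less than the spread of Psmb1. Psme2b (161 ± 7.93), Psmb5 (132 ± 25.3) and Psmc1 (112 ± 6.58) followed, and the spreads of the last pair overlapped. The rank of Psme2b is uncertain, as reads could have been split between it and its near copy Psme2 (13.7 FPKM in control). Their implied lengths were 837 and 3518 bases. Single genes overlapped between classes, as the base chaperone gene Psmd10 (22.9) was above the non-ATPase gene Psmd11 (7.86). The length implied by FPKM and counts ran from 742 bases for Psmg4 to 10339 for Psmf1, so the order among subunits rests on these lengths.

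**Figure D4:**
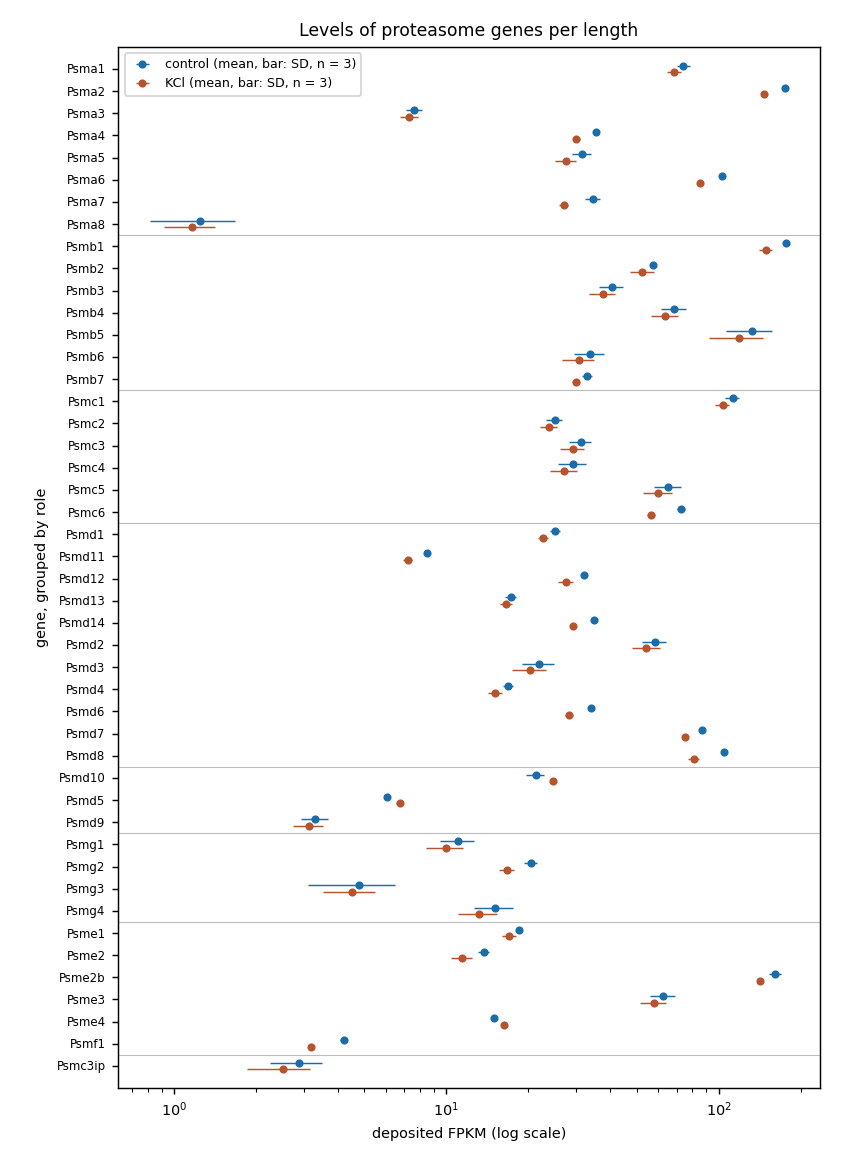
Points give the mean deposited FPKM of each member (log axis) in control and KCl with a bar of 1 SD (n = 3), in rows grouped by role. Differences between genes, from 1.21 for Psma8 to 162 for Psmb1 over all 6 libraries, are far larger than the difference between groups within any gene.

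Proteasome partners outside the symbol pattern were tested as a list of 13, of which 12 were in the table. Of these 1 rose, 2 fell and 9 did not pass, with a median of -0.07 (-0.10 without replicate 4). Over all tested genes 12.4% rose and 10.5% fell, shares that also stand beside the lists that follow. Usp14, a deubiquitinase of the cap, stood at 127, 130 and 127 CPM without KCl and 107, 109 and 107 with it (-0.25 ± 0.04, edgeR adjusted p = 0.00949). Txnl1, a thioredoxin-like protein of the cap, read 101, 96.6 and 98.1 CPM against 75.0, 80.8 and 77.6 (-0.34 ± 0.05). Both had groups that did not overlap and fell by about as much as the lid genes that fell. Zfand2a, a stress-induced partner, rose by 0.22 ± 0.05. Pomp, which helps the core mature, was at 107, 100 and 84.2 CPM against 84.7, 84.6 and 102, with replicate 4 crossed as in most beta genes (-0.11 ± 0.12, or -0.30 without it).

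The immunoproteasome genes Psmb8, Psmb9 and Psmb10 did not pass, with changes of -0.01, -0.10 and 0.23. Without replicate 4 these were -0.10, -0.34 and 0.05. Of 8 genes around NFE2L1, 2 rose, 0 fell and 6 did not pass, with a median of 0.14 (0.13 without replicate 4). Those that rose encode small MAF partners. Mafk went from 33.1, 35.1 and 35.7 to 50.9, 49.0 and 47.5 CPM (0.51 ± 0.06, edgeR adjusted p = 0.00422) and Mafg from 132, 153 and 145 to 175, 185 and 173 CPM (0.31 ± 0.07). Nfe2l1 itself overlapped, at 68.1, 86.4 and 61.4 CPM without KCl and 68.8, 59.2 and 78.3 with it. Replicate 4 was crossed, and the change was -0.07 ± 0.16, or -0.27 ± 0.15 without replicate 4, and did not pass.

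Of 6 shuttle receptors, which carry tagged proteins to the cap, 1 fell (Rad23b, -0.24 ± 0.05) and 0 rose. Of 12 genes of the p97 segregase and its cofactors, 1 rose (Derl1, 0.18 ± 0.05), 1 fell (Nsfl1c, -0.40 ± 0.07) and 10 did not pass. In the CCT chaperonin, another ring complex, 3 of 8 subunit genes fell (Cct6a, -0.40, Cct2, -0.35, and Tcp1, -0.31) and 0 rose, with a median of -0.13 (-0.31 without replicate 4). Without replicate 4, 0 genes of these lists passed by edgeR.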

How the data were processed

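Total RNA from 6 samples was sequenced on an Illumina instrument, per the labels' protocols. The mm10 build, HISAT2 2.0.4, StringTie 1.3.3b and edgeR are named in, and credited per, the submitters' processing notes. Which program counted, and whether by strand, is not given in the sources used here. The authors deposited 1 table with a raw count and an FPKM value per gene and library. Counts were tested as deposited, and FPKM was used only for levels between genes. Without strand, reads of overlapping genes cannot be told apart, and 13 of 46 members share exon sequence with another gene in GENCODE M21 (mm10).

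The 2-sided robust quasi-likelihood test of edgeR 4.0.16 (R 4.3.3) was run on them. filterByExpr chose the genes (count of 10, total of 15), which were scaled by TMM and adjusted by Benjamini-Hochberg over all tested genes at 0.05. CPM values are TMM-scaled, and SE is the log2 fold change divided by the root of the F statistic. Groups came from the titles and treatment labels. The test was checked on simulated data with independent libraries, unlike control 4 and KCl 4. It recovered 2 of 49 genes changed 1.25-fold, 19 of 50 changed 1.5-fold and 46 of 49 changed 4-fold, with 8 false calls. Small changes were thus mostly missed in the simulation.

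The members and lists were chosen with earlier results of these data known. Values per library are given for members that fell, up to 2 further members per role with the smallest p, and fixed catalytic, ubiquitin-handling and activator genes (33 in all). Other members named were chosen after their values were seen. Of lists outside the members, genes that passed are named, up to 4 a list. The results of 1 further list are not reported here. Alternatives were other scalings and filters, DESeq2 1.42.0, limma-voom (limma 3.58.1), a block for replicate number, leaving out single libraries, and leaving out both libraries of replicate 4. Marker lists not described above also stood as follows: of 8 myeloid genes 4 rose, of 7 macrophage genes 2, of 6 B cell genes 1, of 6 stromal and endothelial genes 1 and of 6 erythroid and megakaryocyte genes 0, and none fell. Among all tested genes 12.4% rose.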

Additional observations from a re-analysis of the deposited data

How the results depend on the processing

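Under 3 other scalings (RLE, upper-quartile, library size), without a filter, with a filter at a mean CPM of 5, and under DESeq2 and limma-voom, the 13 members that fell all passed, and 13 to 16 members fell and 0 rose. Upper-quartile scaling turned the split of all genes from 1655 higher and 1402 lower to 1422 and 1735. Leaving out 1 library gave 2 to 12 members that fell (4 without control 4, 2 without KCl 4), 0 that rose, 551 to 1356 of all genes that fell, 852 to 1495 that rose, and a members' median of -0.19 to -0.10. Without both libraries of replicate 4 the counts were 0 members, 17 genes lower and 45 higher, and the members' median moved to -0.23; fewer samples are part of that fit. With the replicate number as a block, 3 members fell (Psma7, Psmd8 and Psmf1), and 700 genes fell and 978 rose. The labels do not say whether the numbers pair the samples. Deviations from the group means correlated between same-numbered libraries at 0.02, -0.12 and -0.99 for replicates 1, 2 and 4. No control library correlated best with its own number. These group means include control 4 and KCl 4, which were tied to the remaining libraries, so the correlations cannot decide the pairing. Psmb5 ranged from -0.43 without both libraries of replicate 4 to 0.027 without KCl 1, and was 0.0047 without control 2. Over all 46 members and 15 alternatives, 5 changed sign, each only when 1 library was left out. Besides Psmb5 these were Psmd3 (0.013 without control 2), Psmd9 (0.030 without control 2, 0.015 without KCl 2), Psmg3 (0.26 and 0.017 in the same fits) and Psma8 (0.23 without control 1, 0.016 without KCl 2). Psma8 (1.62 to 2.90 CPM) had the fewest counts of the members. The causes of these changes were not tested.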

Other observations

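The 19S lid shares its architecture with 2 other complexes, the COP9 signalosome, which removes NEDD8 from cullins, and the translation factor eIF3. Both lists were chosen after the data were seen. Of 13 eIF3 subunit genes 8 fell, 0 rose and 5 did not pass, against 10.5% of tested genes that fell and 12.4% that rose. The median was -0.24 (-0.27 without replicate 4, where 0 passed by edgeR). Eif3e stood at 220, 193 and 205 CPM without KCl and 159, 153 and 155 with it (-0.40 ± 0.06, edgeR adjusted p = 0.00725), and Eif3d at 216, 211 and 211 against 174, 163 and 167 (-0.34 ± 0.05). Eif3b (413, 420 and 339 against 352, 328 and 412 CPM) and Eif3k (146, 139 and 118 against 119, 120 and 140) did not pass and had KCl 4 above control 4.

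Of 9 COP9 signalosome genes 2 fell, 0 rose and 7 did not pass, against 10.5% of tested genes that fell and 12.4% that rose. The median was -0.12 (-0.22 without replicate 4, where 0 passed by edgeR). Cops2 read 98.7, 118 and 108 CPM without KCl and 77.2, 85.4 and 80.6 with it (-0.41 ± 0.08), and Cops7a 49.8, 50.0 and 46.7 against 37.5, 37.8 and 39.7 (-0.35 ± 0.06). Cops6 had 93.8, 95.6 and 79.3 CPM against 78.2, 81.1 and 93.3 and did not pass. Whether these lists differ from the proteasome members was not tested.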
